A study of Mus musculus with 9 samples.

Results

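The genes Tff3, Ptgs1, Hr, Tmprss11b, Purg, Cdsn, Acvr2b and Pilra were followed through RNA-Seq of Hepa1-6 cells, a mouse hepatoma line, exposed to the antibiotics lefamulin or tiamulin. These 8 of the 56748 genes in the deposited table were chosen by symbol because their counts under the 2 drugs stood about 2-fold or more apart. All 8 passed the filter on low counts, which kept 14510 genes. The series holds 9 libraries in 3 groups of 3, all from this one line grown under the same culture conditions. The groups are control cells, cells given 37 µg/mL lefamulin for 2 days and cells given 37 µg/mL tiamulin for 2 days. The labels describe the control as left unmanipulated and the study's methods as vehicle-treated. The sample titles give no time for the control. Nothing in the labels says whether the 3 libraries of a group came from separate cultures, so p values measure only the spread between these libraries, which may be technical. One line in culture, at a single concentration and time, is what these groups can speak for.

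Lefamulin and tiamulin are pleuromutilins, antibiotics that bind the peptidyl transferase centre of the bacterial ribosome. They share the tricyclic mutilin core and differ in the side chain, which carries a diethylaminoethyl thioether in tiamulin and an amino-hydroxy-cyclohexyl thioether in lefamulin. The 2 drugs form a single pair of related compounds, given at the same concentration by mass and for the same time. Equal mass was not equal potency. In the paper's viability assay of this hepatoma line, run over a longer exposure, the inhibitory concentration was lower for lefamulin than for tiamulin. The concentration used for RNA lay above that of lefamulin and below that of tiamulin. Whether potency contributes to differences between the drugs was not tested. The 8 genes are not a pathway. Tff3 encodes a small trefoil peptide secreted by goblet cells, Pilra an inhibitory immunoglobulin-like receptor of myeloid cells, and Acvr2b a receptor kinase that binds activins and related ligands at the cell surface. Ptgs1 encodes cyclooxygenase-1, which turns arachidonic acid into the precursor of prostaglandins and thromboxanes. Tmprss11b encodes a serine protease anchored in the membrane of squamous epithelia, and Cdsn encodes corneodesmosin, an adhesion protein of the outer epidermis. Hr encodes Hairless, a nuclear corepressor of the vitamin D and thyroid hormone receptors needed for the hair cycle. Purg encodes a member of the PUR family of proteins that bind single-stranded DNA and RNA.

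Promoter windows were drawn from RefSeq for build GRCm38.p6, from 250 bases before to 50 bases after the annotated start. They cover 5 of the 8 genes, in 6 windows of the 32851 in the table, and no window was used for Tff3, Hr and Purg. The 4 shown belong to genes with different responses, as described after them. Tmprss11b rose under both drugs, Ptgs1 under lefamulin, Acvr2b fell under lefamulin, and Cdsn rose under tiamulin. Capitals mark every match, on either strand, to the 6 motifs searched, namely the TATA box TATAAA, the CCAAT box, the GC box GGGCGG, the E-box CACGTG, the AP-1 site TGANTCA and the cyclic AMP element TGACGTCA. No matches overlap in these windows.
Tmprss11b, chr5:86676249-86676548, minus strand: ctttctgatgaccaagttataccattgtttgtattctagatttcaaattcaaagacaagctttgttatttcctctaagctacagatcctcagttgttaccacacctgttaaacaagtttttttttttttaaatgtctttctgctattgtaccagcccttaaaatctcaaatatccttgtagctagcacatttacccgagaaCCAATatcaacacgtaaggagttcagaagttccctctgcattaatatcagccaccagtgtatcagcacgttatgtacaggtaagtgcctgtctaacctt
Ptgs1, chr2:36230176-36230475, plus strand: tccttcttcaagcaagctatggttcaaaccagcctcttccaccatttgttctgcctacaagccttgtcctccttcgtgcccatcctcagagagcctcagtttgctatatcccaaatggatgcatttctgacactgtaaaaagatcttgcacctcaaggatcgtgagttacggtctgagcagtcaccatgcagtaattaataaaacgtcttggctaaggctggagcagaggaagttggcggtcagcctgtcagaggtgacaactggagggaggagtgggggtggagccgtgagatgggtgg
Acvr2b, chr9:119401928-119402227, plus strand: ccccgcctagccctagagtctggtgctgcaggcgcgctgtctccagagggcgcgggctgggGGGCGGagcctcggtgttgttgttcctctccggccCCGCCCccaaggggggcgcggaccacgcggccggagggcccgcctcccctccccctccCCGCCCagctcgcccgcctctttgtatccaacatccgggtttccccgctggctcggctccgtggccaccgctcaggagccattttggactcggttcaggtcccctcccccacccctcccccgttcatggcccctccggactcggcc
Cdsn, chr17:35551878-35552177, plus strand: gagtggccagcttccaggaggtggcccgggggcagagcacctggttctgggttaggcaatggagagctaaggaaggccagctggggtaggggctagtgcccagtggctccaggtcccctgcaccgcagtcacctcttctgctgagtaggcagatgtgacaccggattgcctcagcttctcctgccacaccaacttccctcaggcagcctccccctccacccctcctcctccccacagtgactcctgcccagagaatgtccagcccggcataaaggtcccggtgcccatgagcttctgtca
The window of Acvr2b was the richest in G and C of the 6, at 73.3% with 27 CG dinucleotides, and it held 3 matches to GGGCGG. That of Tmprss11b was the poorest, at 36.7% with 3 CG dinucleotides, and held 1 match to CCAAT. Those of Ptgs1 and Cdsn, at 50.7% and 63.0%, held no match, nor did a second Cdsn window at 53.7%. The Pilra window, at 48.0%, held 1 match to GGGCGG. Over all windows the median was 52.7% with 7 CG dinucleotides, CCAAT was found in 37.4% and the GC box in 35.7%, whereas the TATA box was found in 13.6%, the AP-1 site in 7.81%, the E-box in 7.15% and the cyclic AMP element in 1.79%. A match describes the letters of the window and was not tested for binding.

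Total counts lay between 15568887 and 18008105 per library, so that 1 CPM (a read count scaled to library size after TMM normalization) stood for 15.7 to 17.9 counts. The tiamulin 2 library stood apart from the others of its group. Its counts differed from those of tiamulin 1 and tiamulin 3 by a chi-square of 18.1 and 20.6 per degree of freedom, against 2.88 to 7.57 for the other pairs within groups, and its deviations followed GC content over 10647 genes (Spearman's rho 0.683, against -0.519 and -0.562 in tiamulin 1 and tiamulin 3). Deviations also followed GC content in the control group, with a rho of 0.483 in control 1 and -0.481 in control 2. Over the 14242 genes with a known GC content, the tiamulin minus lefamulin difference correlated with GC content by a rho of 0.186. The transcripts of the 8 genes held between 38.8% and 61.6% GC. Without tiamulin 2, the difference for the 8 genes lay between -1.32 and 1.10 on the log2 scale and kept its sign in each, and the smallest in size was that of Tff3 at -0.84. When GC content and length entered as offsets it lay between -1.37 and 1.12, again with the same signs.

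The 8 genes fell into 4 kinds of response to the 2 drugs when each drug was set against control with edgeR's quasi-likelihood test at a Benjamini-Hochberg adjusted p below 0.05. Tff3 rose under lefamulin and fell under tiamulin. Tmprss11b rose under both, more under lefamulin. Ptgs1, Hr and Acvr2b passed under lefamulin alone, the first and second of these rising and the last falling. Cdsn, Purg and Pilra passed under tiamulin alone, with Cdsn and Purg higher and Pilra lower than control. The difference between the drugs itself chose the genes and was therefore not tested, so passing under one drug and not the other is part of the choice. Both drug comparisons also use the same 3 control libraries, and in bulk RNA fewer cells expressing a gene and less RNA per cell cannot be told apart.

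**Figure D1:**
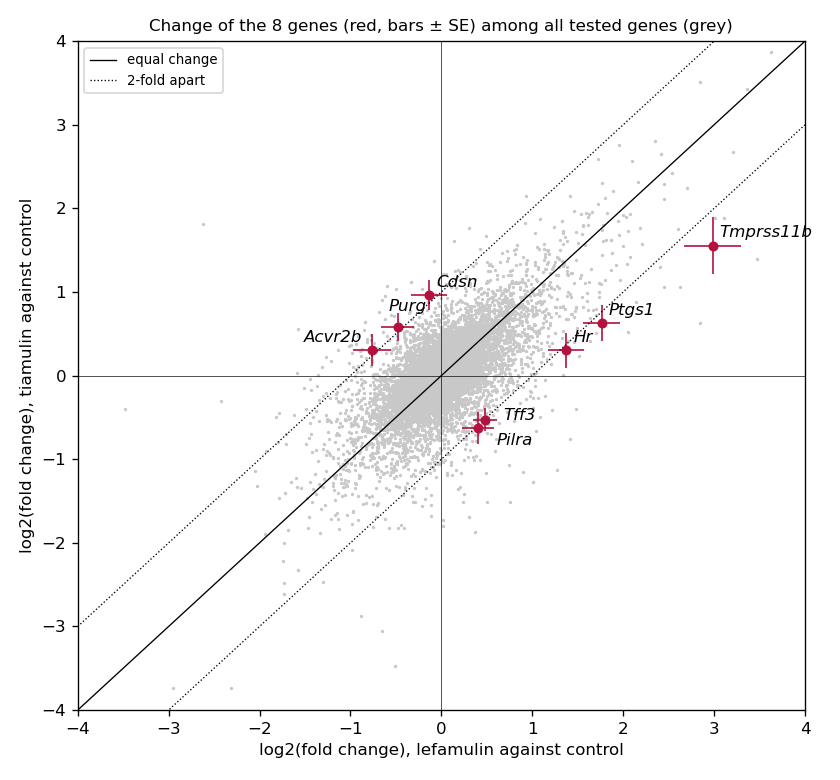
Each grey point is one of the 14510 tested genes, at its log2(fold change) under lefamulin (x axis) and under tiamulin (y axis) against control, and red points with bars of ± SE are the 8 genes. All 8 lie on or outside the dotted lines of a 2-fold difference, with Tff3 and Pilra at lower right of the origin, Purg, Acvr2b and Cdsn at upper left and Tmprss11b raised on both axes.

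The number of these genes that passed has to be read against all genes tested, and the choice used the same treated libraries. Under lefamulin 5 of 8 passed, where 13.1% of all tested genes did, and under tiamulin 5 of 8, where 16.4% did. With the further requirement of an absolute log2(fold change) above 1, which defines a differentially expressed gene (DEG) here, lefamulin left Tmprss11b, Ptgs1 and Hr, 3 of 8 against 1.51%. Tiamulin left Tmprss11b, 1 of 8 against 1.78%. Passing under lefamulin alone was seen in 3 of 8 and in 5.56% of all genes, under tiamulin alone in 3 of 8 and 8.89%, and under both in the same direction in 1 of 8 and 7.49%. Passing under both in opposite directions was met by Tff3 alone of the 8, and by 6 of the 14510 tested genes (0.0414%). Since the choice of the 8 favours unequal responses, these counts describe the genes and support nothing further.

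A 2-fold difference between the drugs was not confined to these genes. It was reached by 206 of the 14510 tested genes (1.42%), and the 8 ranked between 49 (Tmprss11b) and 198 (Tff3) by its size. Of these, 19 had at least the median count of the 8. The members with the smallest differences were Pilra at -1.03 and Tff3 at -1.01 on the log2 scale, tiamulin minus lefamulin, while the next genes in the order, Gm5853 and Mgat4a, both stood at -1.01 and are not among the 8. The 3 lefamulin libraries lay wholly above or wholly below the 3 controls in 7 of the 8 genes and in 37.6% of all genes, and the tiamulin libraries in 6 of the 8 and in 32.3%.

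**Figure D2:**
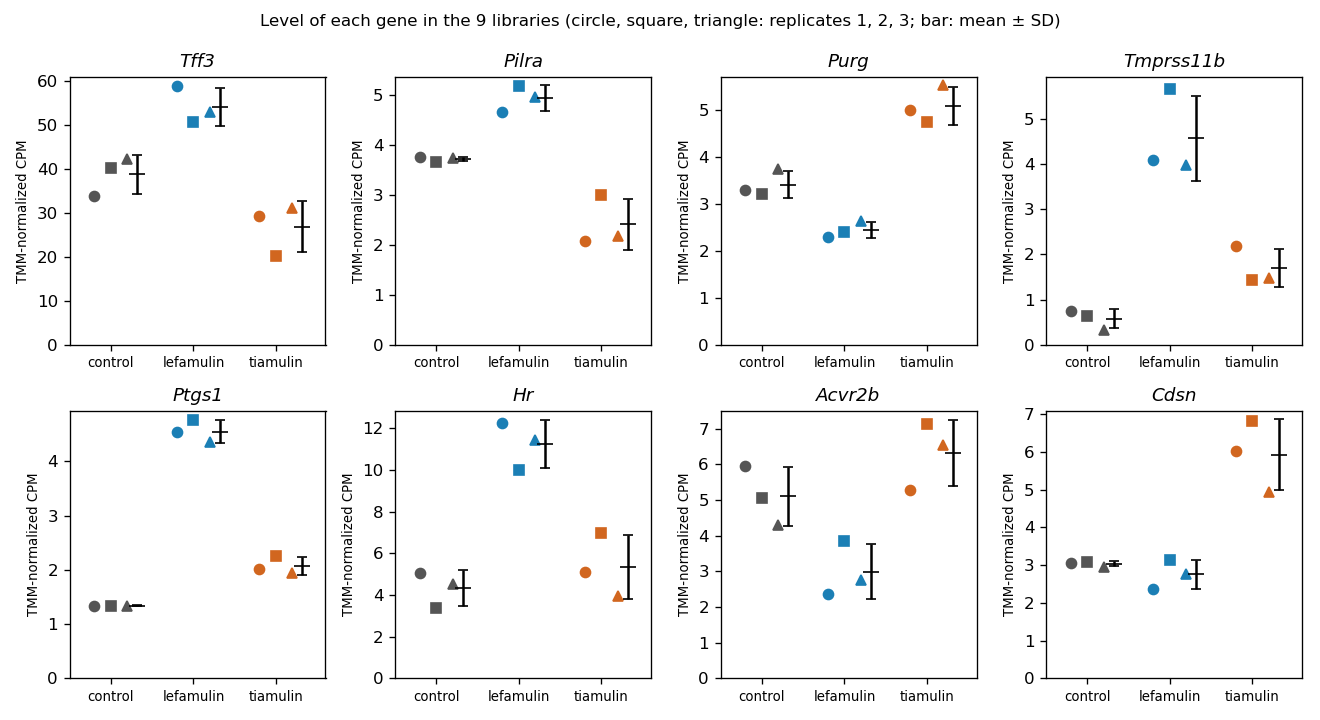
Level of each gene in TMM-normalized CPM (y axis, from 0) in the 9 libraries, by group (x axis), with circle, square and triangle for replicates 1, 2 and 3 and bars for the mean ± SD of 3 libraries. Tmprss11b and Ptgs1 are above control in all 6 treated libraries, and Tff3, Pilra and Purg have the controls between the 2 drugs.

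Tmprss11b showed the strongest increase of the 8. The gene (ENSMUSG00000035861) is deposited at chr5:86805490-86824221 on the minus strand. Replicates 1, 2 and 3 held 13, 11 and 6 counts in control, 64, 94 and 65 with lefamulin, and 36, 23 and 25 with tiamulin. The 3 groups did not overlap, with control lowest and lefamulin highest. Mean levels were 0.575 ± 0.215 CPM in control, 4.58 ± 0.941 under lefamulin and 1.70 ± 0.425 under tiamulin (SD, n = 3 each), 7.96 and 2.96 times the control mean. The log2(fold change) was 2.98 ± 0.31 (SE) under lefamulin (95% confidence interval 2.32 to 3.65, edgeR adjusted p = 2.34e-05) and 1.56 ± 0.34 under tiamulin (0.82 to 2.29, edgeR adjusted p = 0.00639). It stayed past the threshold under both drugs when any single library was left out, with values from 2.71 to 3.22 and from 1.28 to 1.79. The tiamulin call was lost with limma on genes of any FPKM above 0 (adjusted p = 0.167). Per length it was the least expressed of the 8 in control cells, at 0.137 FPKM (fragments scaled to gene length and library size), so few reads carry these folds. It passed the filter on low counts through its treated libraries, and so had to be high there to be tested at all.

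Ptgs1, which encodes cyclooxygenase-1, was raised under lefamulin and intermediate under tiamulin. The gene (ENSMUSG00000047250) is deposited at chr2:36120438-36142284 on the plus strand. Its counts were 23, 23 and 24 in control, 71, 79 and 71 under lefamulin and 33, 36 and 33 under tiamulin, again with no overlap between any of the groups. Levels of 1.34 ± 0.0067 CPM in control, 4.55 ± 0.204 under lefamulin and 2.07 ± 0.162 under tiamulin (SD, n = 3) made a ratio to control of 3.41 and of 1.55. Under lefamulin the log2(fold change) was 1.76 ± 0.20 (1.34 to 2.19, edgeR adjusted p = 4.82e-05). Under tiamulin it was 0.63 ± 0.22 with an interval of 0.17 to 1.09, which did not pass (edgeR adjusted p = 0.0614). Ptgs1 is thus listed under lefamulin alone although its tiamulin libraries all lay above its controls. The lefamulin call held in each of the 19 alternatives run, and the tiamulin change passed in none of them (adjusted p from 0.0527 to 0.281).

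Hr, the gene of the Hairless corepressor, was raised under lefamulin. It (ENSMUSG00000022096) is deposited at chr14:70789652-70810988 on the plus strand. The 3 control libraries held 88, 58 and 81 counts, those of lefamulin 192, 166 and 187, and those of tiamulin 84, 112 and 67. The lefamulin libraries stood above all others, and the tiamulin libraries overlapped the controls. The level rose from 4.33 ± 0.870 CPM in control to 11.2 ± 1.15 under lefamulin, a log2(fold change) of 1.38 ± 0.20 (0.95 to 1.801, edgeR adjusted p = 3.89e-04), and was 5.35 ± 1.54 under tiamulin (SD, n = 3). The tiamulin change of 0.30 ± 0.21 had an interval of -0.15 to 0.75 (edgeR adjusted p = 0.373), which leaves room for an increase as well as for none. It was 0.06 without tiamulin 2, the library highest in Hr of its group. The lefamulin call held in all 19 alternatives, with adjusted p of at most 0.0292.

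Acvr2b, the activin receptor gene with the promoter window richest in CG dinucleotides, was the one gene of the 8 that passed as lower under lefamulin. It (ENSMUSG00000061393) is deposited at chr9:119231184-119264061 on the plus strand. Control libraries held 103, 87 and 77 counts, lefamulin libraries 37, 64 and 45, and tiamulin libraries 87, 114 and 111. Every lefamulin library lay below every control, whereas tiamulin 1 fell within the range of the controls. In CPM the levels were 5.10 ± 0.824, 2.99 ± 0.773 and 6.32 ± 0.934 (SD, n = 3), so that lefamulin cells had 58.6% of the control mean. The log2(fold change) under lefamulin was -0.76 ± 0.21 (-1.22 to -0.31, edgeR adjusted p = 0.0287) and that under tiamulin 0.31 ± 0.20 (-0.11 to 0.73, edgeR adjusted p = 0.322). The lefamulin call was lost in 7 of 19 alternatives. These were the fits without control 1 (adjusted p = 0.120), control 2 (0.0659), lefamulin 1 (0.125) or lefamulin 3 (0.107), where the value lay between -0.77 and -0.62, and the 3 fits of limma on log2 FPKM, with values of -0.39 to -0.71 and adjusted p from 0.0787 to 0.199.

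Cdsn, which encodes corneodesmosin, passed as raised under tiamulin. The gene (ENSMUSG00000039518) is deposited at chr17:35863025-35868077 on the plus strand. It had 53 counts in each control library, 37, 52 and 45 under lefamulin and 99, 109 and 84 under tiamulin. The tiamulin libraries stood above all others, and the lefamulin libraries overlapped the controls once scaled to library size. Levels were 3.04 ± 0.066 CPM in control, 2.75 ± 0.384 under lefamulin and 5.93 ± 0.937 under tiamulin (SD, n = 3). The increase under tiamulin came to a log2(fold change) of 0.96 ± 0.18 (0.57 to 1.35, edgeR adjusted p = 0.00215), just under the threshold of 1 for a DEG. Under lefamulin it was -0.14 ± 0.20 (-0.56 to 0.28, edgeR adjusted p = 0.702). The tiamulin call held in all 19 alternatives (adjusted p of at most 0.0268).

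In 3 of the 8 genes, Tff3, Pilra and Purg, the lefamulin libraries all lay on one side of the controls and the tiamulin libraries all on the other, a pattern met by 158 of the 14510 tested genes (1.09%). Tff3, the goblet cell peptide, was by far the most abundant of the 8, at 78.2 FPKM in control, in percentile 96.2 of the tested genes by that level. The gene (ENSMUSG00000024029) is deposited at chr17:31344280-31348620 on the minus strand. Its counts were 585, 689 and 758 in control, 922, 840 and 863 under lefamulin and 483, 323 and 527 under tiamulin. From 38.7 ± 4.44 CPM in control the mean rose to 54.1 ± 4.29 under lefamulin (139.8% of control) and fell to 26.9 ± 5.85 under tiamulin (69.4% of control; SD, n = 3). The log2(fold change) was 0.48 ± 0.13 (0.20 to 0.77, edgeR adjusted p = 0.0277) and -0.53 ± 0.14 (-0.82 to -0.23, edgeR adjusted p = 0.0167). Both are under 2-fold, and their difference reached 2-fold because they are opposite in sign. Tiamulin 2, the lowest library in Tff3, moved the tiamulin value to -0.36 when left out (adjusted p = 0.00478).

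The calls for Tff3 depended on the libraries and the fit more than its sign did. The lefamulin call was lost without control 1 (adjusted p = 0.121), control 2 (0.0559), control 3 (0.0505), lefamulin 1 (0.115), lefamulin 2 (0.0560) or lefamulin 3 (0.0752), and in the 3 fits of limma on log2 FPKM (0.0792 to 0.192). The tiamulin call was lost without control 2 (0.0562) or control 3 (0.0835), with only the groups compared (0.0531) and with limma on genes of any FPKM above 0 (0.128). In none of the 19 alternatives did the lefamulin change fall below 0.39 or the tiamulin change come closer to 0 than -0.36.

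Pilra, the inhibitory receptor, passed as lower under tiamulin. It (ENSMUSG00000046245) is deposited at chr5:137820214-137834543 on the minus strand. Counts ran 65, 63 and 67 in control, 73, 86 and 81 with lefamulin, and 34, 48 and 37 with tiamulin, without overlap. Levels were 3.72 ± 0.047 CPM in control, 4.94 ± 0.259 under lefamulin and 2.42 ± 0.508 under tiamulin (SD, n = 3). The log2(fold change) was 0.41 ± 0.18 under lefamulin (0.03 to 0.79, edgeR adjusted p = 0.150) and -0.62 ± 0.19 under tiamulin (-1.03 to -0.22, edgeR adjusted p = 0.0376). The tiamulin call was the least steady of the 8 genes, lost in 15 of 19 alternatives. Its value lay between -0.81 and -0.53 with a library left out, and between -0.81 and -0.31 over all 19 alternatives. Leaving out control 1, 2 or 3 gave an adjusted p of 0.0870, 0.0849 or 0.0995, leaving out lefamulin 1, 2 or 3 gave 0.0521, 0.0548 or 0.0549, and leaving out tiamulin 1 or 3 gave 0.128 or 0.109. Without tiamulin 2 it was kept, at -0.81 (adjusted p = 0.0105). With the replicate number as a block the adjusted p was 0.0600, and with DESeq2, no filter, only the groups compared and the 3 fits of limma it lay between 0.0657 and 0.160.

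Purg, of the PUR family, showed the reverse order. The gene (ENSMUSG00000049184) is deposited at chr8:33876353-33907495 on the plus strand. Its counts were 57, 55 and 67 in control, 36, 40 and 43 with lefamulin, and 82, 76 and 94 with tiamulin, without overlap. Levels were 3.41 ± 0.290 CPM in control, 2.45 ± 0.171 under lefamulin and 5.09 ± 0.402 under tiamulin (SD, n = 3). The gene rose under tiamulin, with a log2(fold change) of 0.58 ± 0.17 (0.22 to 0.93, edgeR adjusted p = 0.0292), and under lefamulin had -0.48 ± 0.18 (-0.87 to -0.09, edgeR adjusted p = 0.09998). The tiamulin call was lost without control 1 (adjusted p = 0.0862), control 2 (0.0988), control 3 (0.0520), tiamulin 1 (0.0637) or tiamulin 3 (0.0968), with values between 0.51 and 0.65. It was also lost with DESeq2 (0.0701), without a filter on low counts (0.0727) and with only the groups compared (0.0504), 8 of 19 alternatives in all.

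**Figure D3:**
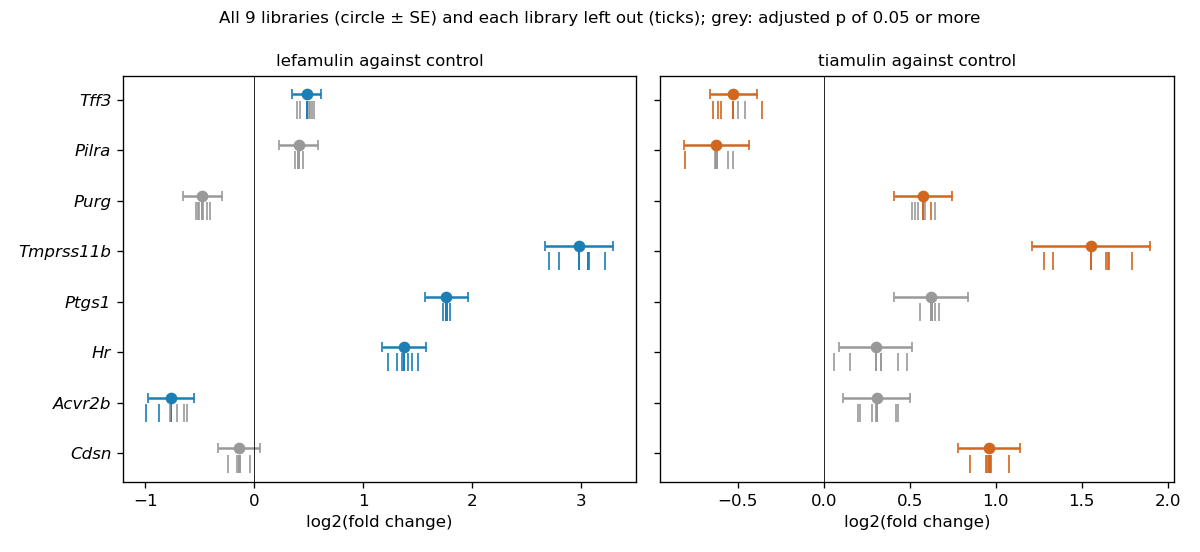
log2(fold change) against control (x axes) for each gene under lefamulin (left panel) and tiamulin (right panel), with the circle and bar for the value ± SE from all 9 libraries and ticks for the values with each library left out in turn. Coloured marks have an adjusted p below 0.05 and grey marks do not. Tmprss11b, Ptgs1 and Hr under lefamulin and Cdsn and Tmprss11b under tiamulin stay coloured throughout.

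The mean of both drugs against control is, of the contrasts tested, the least tied to the choice of these genes, since it is orthogonal to the difference between the drugs. Even so, it uses the treated libraries that chose them and is not free of that choice. It was passed by 3 of the 8, against 17.4% of all tested genes. Tmprss11b had a log2(fold change) of 2.27 ± 0.30 (edgeR adjusted p = 1.13e-04), although its treated libraries are what took it past the filter on low counts. Ptgs1 had 1.19 ± 0.18 (edgeR adjusted p = 4.52e-04) and Hr 0.84 ± 0.18 (edgeR adjusted p = 0.00547). Neither of these had passed under tiamulin by itself (edgeR adjusted p = 0.0614 and 0.373). The Hr call was lost with limma on log2(FPKM + 0.1) (adjusted p = 0.0545) and on genes of any FPKM above 0 (0.0893). Cdsn had 0.41 ± 0.16 (edgeR adjusted p = 0.104) and Acvr2b -0.23 ± 0.17 (edgeR adjusted p = 0.420). The 3 genes whose controls lay between the drugs did not pass, with Tff3 at -0.02 ± 0.12, Pilra at -0.11 ± 0.16 and Purg at 0.05 ± 0.15 (edgeR adjusted p from 0.699 to 0.924).

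The relatives of these genes did not all pass with them. Tff2, which encodes another trefoil peptide, lies 11403 bases from Tff3 and had 0.13 under lefamulin (edgeR adjusted p = 0.537) and -0.22 under tiamulin (edgeR adjusted p = 0.252), while Tff1 had at most 34 counts in any library and passed under neither drug. Abcg1, the sterol exporter gene 7318 bases on the other side of Tff3, fell under both drugs, by 1.33 (edgeR adjusted p = 0.00825) and 1.60 (edgeR adjusted p = 0.00207) on the log2 scale. Pilrb2, the paralog that encodes an activating counterpart of the Pilra receptor, held 397, 386 and 400 counts in control, 354, 390 and 354 under lefamulin and 271, 232 and 281 under tiamulin. It fell under tiamulin as Pilra did, by 0.51 ± 0.09 on the log2 scale (edgeR adjusted p = 0.00123), and had 0.00 under lefamulin (edgeR adjusted p = 0.991). Reads shared between such paralogs could not be told apart here. Pilra also overlaps Zcwpw1 on the opposite strand, which had 0.22 and 0.16 (edgeR adjusted p = 0.455 and 0.605).

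Wrn, a DNA helicase gene that lies 798 bases from Purg on the opposite strand, had -0.18 and -0.04 and passed under neither drug (edgeR adjusted p = 0.209 and 0.817). Of the other PUR genes, Pura had -0.23 and -0.16 and Purb -0.03 and -0.21, with no pass. Beside Tmprss11b, the related protease gene Tmprss11f rose under tiamulin by 0.53 (edgeR adjusted p = 0.0197) and had 0.29 under lefamulin (edgeR adjusted p = 0.206), an order of the values that Tmprss11b did not show. Nudt18, 4089 bases from Hr, rose under both drugs, by 0.55 (edgeR adjusted p = 0.0198) and 0.88 (edgeR adjusted p = 6.22e-04), and Reep4 on the other side of Hr had 0.03 and 0.28 without a pass. Near Cdsn, Psors1c2 fell under both, by 0.95 (edgeR adjusted p = 0.00679) and 1.35 (edgeR adjusted p = 5.05e-04), unlike Cdsn. Acvr2a, the closest relative of Acvr2b, had 0.11 and -0.24 (edgeR adjusted p = 0.590 and 0.169), and the neighbours of Acvr2b on either side passed under neither drug, Xylb with 0.09 and 0.12 and the noncoding 4930516B21Rik, at 5 to 30 counts, with -0.56 and -0.14. Mepce, on one side of Pilra, had -0.13 under both drugs without a pass, and the paralog Pilrb1 on the other held at most 1 count. Mrrf, the nearest tested gene to Ptgs1, had 0.03 and 0.18. The antisense genes Gm43621 and Gm47320, which overlap Ptgs1 and Acvr2b, held at most 3 and at most 7 counts. The remaining nearest genes, Gm13431 and Olfr334-ps1 beside Ptgs1, Gm43056 beside Tmprss11b, Hmgb1-rs17 beside Purg and Gm9613 beside Cdsn, held at most 3 counts in any library.

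**Figure D4:**
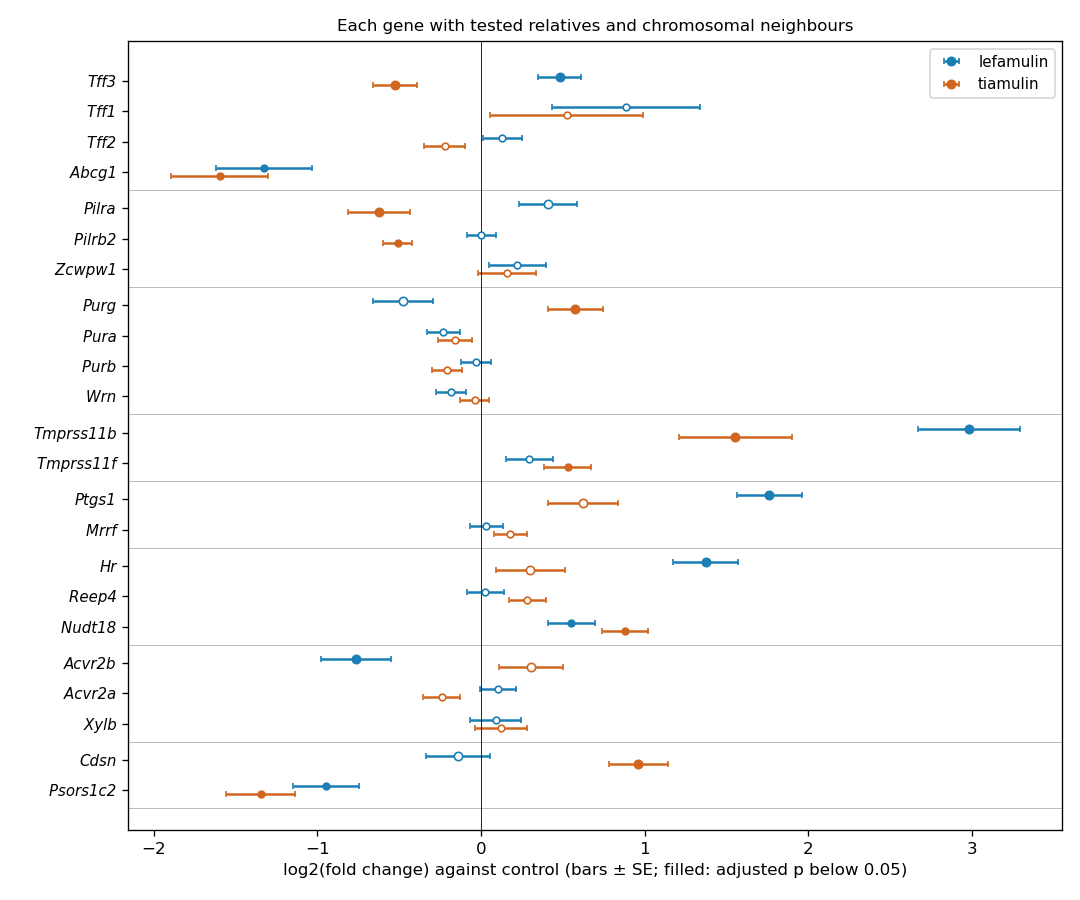
log2(fold change) against control (x axis, bars ± SE) under lefamulin (blue) and tiamulin (orange) for each of the 8 genes and, grouped under it, its tested relatives and neighbours on the chromosome (y axis). Filled points have an adjusted p below 0.05. Only Pilrb2 and Pilra among these groups both fell under tiamulin without passing under lefamulin.

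Seen by pathway, the counts of genes around each member are to be read against 1029 raised and 871 lowered of the 14510 tested genes under lefamulin (median log2(fold change) -0.00183) and 1318 and 1065 under tiamulin (0.00337). Of 23 genes of prostanoid synthesis and signalling, 12 were tested. Those that rose under lefamulin numbered 5, namely Ptgs1, the arachidonate-releasing phospholipase Pla2g4a (0.84, edgeR adjusted p = 0.0055), the prostaglandin D synthase Hpgds (0.62, edgeR adjusted p = 3.52e-04), the prostaglandin reductase Ptgr1 (0.30, edgeR adjusted p = 0.0119) and the prostaglandin transporter Slco2a1 (0.55, edgeR adjusted p = 0.0011). Under tiamulin Pla2g4a (1.10, edgeR adjusted p = 5.11e-04) and Hpgds (0.61, edgeR adjusted p = 2.75e-04) rose, and no gene of the list fell under either drug. The median of the list was 0.23 under both, and Ptgs2, the inducible cyclooxygenase gene, did not pass the filter on low counts.

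All 16 genes of Hairless, its partner receptors, corepressors and JmjC relatives were tested. Under lefamulin Hr and Thrb (0.55, edgeR adjusted p = 0.0266) rose and Rxrb (-0.42, edgeR adjusted p = 0.00965), Hdac1 (-0.21, edgeR adjusted p = 0.0365) and Kdm3a (-0.33, edgeR adjusted p = 0.00336) fell. Under tiamulin Thrb, which encodes a thyroid hormone receptor (0.94, edgeR adjusted p = 5.71e-04), and Rora, an orphan receptor gene (0.60, edgeR adjusted p = 3.40e-04), rose and Hdac1 (-0.36, edgeR adjusted p = 0.00112) and Kdm3a (-0.24, edgeR adjusted p = 0.0174) fell. Vdr, the vitamin D receptor gene, had 0.09 and -0.46 and passed under neither. The list's medians were -0.14 and -0.08.

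Of 41 activin, BMP and TGF-β genes, 28 were tested, and Acvr2b and Smad3 (-0.30, edgeR adjusted p = 0.00363), an effector of activin and TGF-β receptors, were the 2 that fell under lefamulin, with none raised and a median of -0.05. Under tiamulin Tgfbr2 (0.35), Bmp4 (0.48), Fstl3 (0.97) and Smurf1 (0.33) rose and Tgfbr1 (-0.41), Fst (-0.37) and Smad2 (-0.25) fell (edgeR adjusted p from 0.00474 to 0.0364), with a median of 0.01. Of the other activin receptor genes, Acvr1, Acvr1b and Acvr2a passed under neither drug. Among ligands and inhibitors, Inhba, which encodes an activin subunit, had 0.43 and 0.55 without a pass, whereas Fst and Fstl3, which encode activin-binding inhibitors, had the opposite signs under tiamulin already given.

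The epithelial lists were expressed in part. Of 22 genes of the corneodesmosome and cornified layer, 9 were tested, and the list's summed FPKM of 2040 to 2190 in control was nearly all Sprr1a, a cornified envelope gene at 2068 FPKM. Sprr1b stood at 29.8 FPKM and the keratin gene Krt10, the envelope gene Ivl, Krt5 and Cdsn at 2.41, 2.37, 1.40 and 1.13 FPKM, while Pkp1, Tgm1 and Spink5 were tested at lower levels. Krt1, Flg, Lor and Dsc1, also markers of the outer epidermis, held at most 6 counts in any library. Beside Cdsn, Sprr1b rose under both drugs (1.12, edgeR adjusted p = 1.60e-06, and 1.07, edgeR adjusted p = 1.56e-06) and Sprr1a under tiamulin (0.21, edgeR adjusted p = 0.0118), with medians of 0.28 and 0.11. Of 22 membrane serine proteases and their inhibitors 5 were tested, and Tmprss11b rose under lefamulin and Tmprss11b and Tmprss11f under tiamulin, with medians of 0.08 and 0.28. Of 14 trefoil and goblet cell genes 4 were tested, Tff1, Tff2, Tff3 and Clca1, with medians of 0.31 and 0.03. The mucin gene Muc2 and the goblet cell genes Fcgbp, Spdef and Atoh1 were not tested for low counts, and Tff3 was the one of the 4 to pass. Of 9 genes of the paired receptor list 6 were tested, with Pilra and Pilrb2 lower under tiamulin and none past the threshold under lefamulin (medians 0.04 and -0.06).

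Hepa1-6 cells are hepatoma cells, and the hepatocyte and fetal liver genes Alb, Afp and Apoe stood at 207, 284 and 872 FPKM in control. Of 11 such markers 9 were tested, and Ttr and Apoa1, which encode proteins hepatocytes secrete, did not pass the filter on low counts. The summed FPKM of the 11 lay between 2390 and 2650 in control, 2210 and 2360 under lefamulin and 2230 and 2740 under tiamulin. Alb (-0.24, edgeR adjusted p = 0.0167) and Hnf4a (-0.21, edgeR adjusted p = 0.0374) fell under lefamulin. Under tiamulin Alb, Afp (-0.81, edgeR adjusted p = 5.45e-07) and Apoe fell and Krt18 rose, with list medians of -0.21 and -0.12. Since Pilra is best known from myeloid cells, 14 myeloid markers were read as well. Of the whole list, 6 had at most 3 counts in each library, 3 of these were at 0 throughout, and 7 genes were tested. Adgre1, Itgam, Tyrobp, Spi1 and the C1q genes were not tested for low counts. Ptprc (2.44 and 2.12, at a mean of no more than 0.0469 FPKM in any group), Cd68 (0.65 and 1.02) and Cd14 (0.36 and 0.43) rose under both drugs, Fcgr3 rose under lefamulin (0.94) and Csf1r fell under both (-1.33 and -1.32), with edgeR adjusted p between 5.86e-04 and 0.0367. With 5, 0 and 3 counts in control, Ptprc passed the filter on low counts through its treated libraries. It had to be high there to be tested. The summed FPKM of the list was 22.5 to 23.5 in control, 28.3 to 33.5 under lefamulin and 29.7 to 40.1 under tiamulin. Most of it was Cd14, at a mean of 14.0, 17.9 and 18.9 FPKM in these groups, and Cd68, at 6.61, 10.3 and 13.4 FPKM. Any part of myeloid transcripts in the values of Pilra was not tested.

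For each of the 8 genes, the genes whose log2 CPM over the 9 libraries had the highest Pearson's r with it were taken from the 13144 genes with a mean log2 CPM of at least 0. These r values share libraries, depth and groups and are given as a description. Ptgs1 was followed by Klf2 (0.990), Cyp1a1 (0.985) and Erg28 (0.983), and Erg28 (0.973) also came second to Haus2 (0.979) for Tmprss11b, before Rfesd (0.972). Hr was most like Trf (0.977), Klf4 (0.967) and A930033H14Rik (0.954). Cdsn was most like Ankzf1 (0.988), Gpbp1l1 (0.977) and Lpin1 (0.977), and Acvr2b like Tyw1 (0.975), Ccdc9b (0.966) and Fgf11 (0.961). For Tff3 the genes were Ndufaf4 (0.975), Nfxl1 (0.975) and Rad51ap1 (0.969), for Purg Gabarapl1 (0.976) and Mirt1 (0.957), and for Pilra Gm3365 (0.974), Clcf1 (0.972) and Ttpal (0.969). Among the 8 themselves, Ptgs1 ran with Tmprss11b (0.947) and with Hr (0.925), and Purg ran against Pilra (-0.947) and Tff3 against Cdsn (-0.907) and Acvr2b (-0.904). The 8 were chosen by the gap between the drugs, which favours large r of either sign among them. These values therefore support no link between the genes.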

How the data were processed

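The 9 RNA-Seq libraries form 3 groups of 3, as the sample labels set them. The authors deposited raw, unscaled counts of reads for each gene. FPKM values made from these counts were deposited by the authors too. The submitters' processing notes name CASAVA 1.8, fastp, HISAT2 2.0.5, featureCounts 1.5.0-p3, DESeq2 1.20.0 and the build mm10. The strand setting of the counting is not given in the sources used here, so overlapping antisense genes and paralogs may share reads. Positions are given as deposited. They are not those of GRCm38, since 0 of the 8 genes and 1435 of 52036 nuclear genes had the same start and end there, and their build was not settled. Promoters are RefSeq's, on GRCm38.p6.

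Total counts were 15568887 to 18008105 per library. Counts were normalized by TMM and tested in 1 fit of the 9 libraries with edgeR 4.0.16 in R 4.3.3 (filterByExpr, robust dispersion, quasi-likelihood test, two-sided, Benjamini-Hochberg adjustment over 14510 genes, called at adjusted p below 0.05). SE is that of the fitted log2(fold change), and intervals are 95%. DEGs also needed an absolute log2(fold change) above 1, after the study. The script was tested on simulated data. The drugs were not tested against each other. Libraries of the same replicate number did not deviate alike from their group means, with correlations between -0.455 and 0.0462. The deviations also follow GC content and the labels do not mention pairing, so these values cannot settle whether the numbers pair libraries.

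Alternatives were DESeq2's size factors, DESeq2 1.42.0, no count filter, at least 10 counts in every library, only the groups compared, the replicate number as a block, limma 3.58.1 with log2(FPKM + 1) or log2(FPKM + 0.1) (genes past 1 FPKM in 3 libraries or more), the same with any FPKM above 0, offsets for GC content and length, and leaving out each library. The 8 genes, the gene lists and the tests were chosen with earlier results of these data known. Named are the 8 genes, their relatives and the nearest gene on each side, the called genes of each list, and the 3 genes most alike in pattern; other named genes were chosen after their values were seen. An item covered by these rules is not reported here. Figures were drawn with matplotlib 3.10.9 in Python 3.11.15.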

Additional observations from a re-analysis of the deposited data

Results flagged for a closer look

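Of the 8 genes, 3, namely Tff3, Pilra and Purg, had all lefamulin libraries on one side of all controls and all tiamulin libraries on the other, so that the same contrast with control had opposite signs under the 2 drugs. The tiamulin minus lefamulin difference in log2(fold change) was -1.01 for Tff3, -1.03 for Pilra and 1.05 for Purg. The difference was not tested, since it chose the genes. The same arrangement of libraries was found in 158 of 14510 tested genes (1.09%), and of the 3 Tff3 alone passed edgeR's test under both drugs.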

How the results depend on the processing

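Of the alternative values for the 24 changes of single genes against control, 387 kept their sign and their side of the threshold, 46 lost the call, 1 gained it (Purg under lefamulin, limma on log2(FPKM + 0.1), adjusted p = 0.0479) and 5 changed sign. The sign changes all concerned Tff3 under the mean of both drugs, which was 0.0100 with GC and length offsets and from -0.1125 to 0.0607 with a library left out. Of the 8 genes, 5 passed under lefamulin, but limma left 2 with a pseudocount of 1, 3 with one of 0.1 and 3 with any FPKM above 0, and 3 to 5 passed with a library left out. Under tiamulin 5 passed, but 3 with DESeq2, 3 without a filter, 2 with only the groups compared, 3, 3 and 2 with the 3 uses of limma, and 2 to 5 with a library left out. For the mean of both drugs 3 passed, and with limma 2, 1 and 2 in the same order. Over the 19 alternatives 3 to 8 of the genes kept the kind of response described, and 4 to 8 did without any one library. The fewest, 3, came with limma and a pseudocount of 0.1, where Tmprss11b was not tested. A minimum of 10 counts in every library, or of 1 FPKM, removed Tmprss11b. Over all genes, 1900 passed under lefamulin, 2383 under tiamulin and 2526 for their mean. These became 944, 1370 and 1418 with any FPKM above 0, and 3410, 3890 and 4060 with GC and length offsets. With a library left out they were 993 to 3708, 1462 to 3433 and 1346 to 4111, the highest of each without tiamulin 2. With only the groups compared, 3510 passed under lefamulin. DEGs numbered 219 under lefamulin and 259 under tiamulin, 131 and 164 with at least 10 counts, 53 and 60 with limma and a pseudocount of 1, 104 and 150 with one of 0.1, and 46 and 58 with any FPKM above 0. With the replicate block 5, 4 and 3 of the 8 genes passed under lefamulin, tiamulin and their mean, Pilra under tiamulin (adjusted p = 0.0600) being the call lost, and 1304, 1811 and 1868 of all genes. Whether the replicate numbers pair the libraries is not given in the labels. The cause of these shifts was not tested. Tmprss11b, with 6 to 13 counts in control, had the lowest control counts of the 8.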
